A study of Mus musculus with 18 samples.

Results

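Genes of the ribosomal proteins of the cytosolic ribosome, with the paralogues whose symbols end in l or l1, were followed in whole testes of juvenile mice. Members were the genes whose symbols have the form Rpl or Rps and a number, with a, x or l endings allowed, together with Rplp0, Rplp1 and Rplp2. The reference table held 87 such symbols. Of these, 48 had at least 1 probe set annotated to that gene alone, out of 18193 genes with such a probe set. A further 29, among them Rpl3, Rpl10 and Rplp1, were covered only by probe sets shared with other genes, and 10, among them Rpl10l, were not analysed here. Each of the 48 was represented by its probe set with the highest mean log2 signal over all arrays. The filter on low signal kept 47 of them, and the probe set of Rps16, whose signal was 1.15 to 56.0, did not pass it. Symbols alone set the membership, although the family was chosen with earlier results of these data known.

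The arrays came from mice homozygous for repro9 (repro9/repro9), an allele of Mybl1, the gene of the transcription factor A-MYB, and from wild-type animals, taken 14 or 17 days after birth (days postpartum, dpp). There were 5 mutant and 3 wild-type arrays at 14 dpp, and 5 mutant and 5 wild-type arrays at 17 dpp. Each array measured total RNA of a whole testis, which holds germ cells and somatic cells together. Since the sources do not say which animal each array came from, p-values measure the spread between arrays, which may be technical. The series' design text gives the ages as rich in early to middle pachytene spermatocytes and in late pachytene to diplotene spermatocytes.

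A cytosolic ribosome has a small subunit, which holds the mRNA and reads its codons, and a large subunit, which joins the amino acids and threads the new chain through an exit tunnel. The proteins named Rps belong to the small subunit and those named Rpl to the large one, while Rplp0, Rplp1 and Rplp2 form the stalk that recruits elongation factors. Most genes of the family are used by every cell, and their mRNAs typically begin with a run of pyrimidines that links their translation to growth signals. A few have paralogues used in particular tissues: in the mouse, Rpl39l is known from spermatocytes and spermatids, and Rpl3l from striated muscle. Some parents, such as Rpl39 and Rps4x, lie on the X chromosome, which is silenced in pachytene spermatocytes.

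The values were MAS5 signal, a brightness on a linear scale in which a doubling adds 1 on the log2 scale, and the number of arrays limits their precision. The arrays form 3 sets by the ratio of 3' to 5' signal of the β-actin controls. The ratio was 2.31 to 2.92 on the 7 arrays of set 1, 1.45 to 1.49 on the 4 arrays of set 2, and 103 to 125 on the 7 arrays of set 3. Set 1 held 2 mutant and 2 wild-type arrays at 14 dpp and 2 mutant and 1 wild-type array at 17 dpp. Set 2 held 3 mutant arrays and 1 wild-type array at 14 dpp, and set 3 held 3 mutant and 4 wild-type arrays at 17 dpp. Differences are from a limma fit to all 18 arrays with the array set as a block, given as mutant minus wild type on the log2 scale with their standard error (SE), and p-values are adjusted over all 34764 probe sets tested, with a threshold of 0.05. Mybl1 itself had a signal of 68.1 to 249 in mutant and 512 to 775 in wild-type testes at 14 dpp, and of 83.4 to 293 in mutant and 1076 to 3959 in wild-type testes at 17 dpp, so that the genotypes did not overlap at either age (limma, adjusted p = 0.0655 at 14 dpp and 4.48e-06 at 17 dpp).

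As a family, the ribosomal protein genes lay close to the bulk of the transcriptome in mutant testes, and Rpl39l stood far below it. At 14 dpp none of the 47 genes passed the threshold, against a background of 0.00653% of the 15307 genes tested called higher and 0.581% called lower (limma, adjusted p). An unadjusted p under 0.05 was found for 1 of the 47, Rpl39l, and for 644 of all genes tested. The median difference was 0.02 over the 47, against 0.01 over all genes tested. At 17 dpp 5 of the 47 were higher, Rpl27a, Rpl14, Rps3, Rps10 and Rps4x, where 14.4% of all genes tested were called higher. Lower were 2 of the 47, Rpl39l and Rps25, where 11.4% of all genes tested were called lower. The shares of the family called at 17 dpp, 10.6% higher and 4.26% lower, were not above these backgrounds.

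The median difference at 17 dpp was 0.25 over the 47 genes and 0.22 over all genes tested. It was 0.25 over 20 genes of the large subunit, 0.33 over 19 of the small subunit, 0.15 over Rplp0 and Rplp2, and 0.06 over the 6 paralogues. Of the 47, 37 had a positive difference, as did 9607 of all 15307 genes tested. Probe sets that ribosomal protein genes share with other genes, 106 of which were tested, had a median of 0.20 at 17 dpp. Of these, 12 were higher and 0 lower, where 10.8% of all probe sets tested were called higher and 8.05% lower. At 14 dpp their median was 0.04 and none was called, where 0.368% of all probe sets were called in either direction (limma), and 0 of them had an unadjusted p under 0.05. Shifting every array to a common median lowered the median of all genes at 17 dpp by 0.15 and left the members' median at 0.10.

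**Figure D1:**
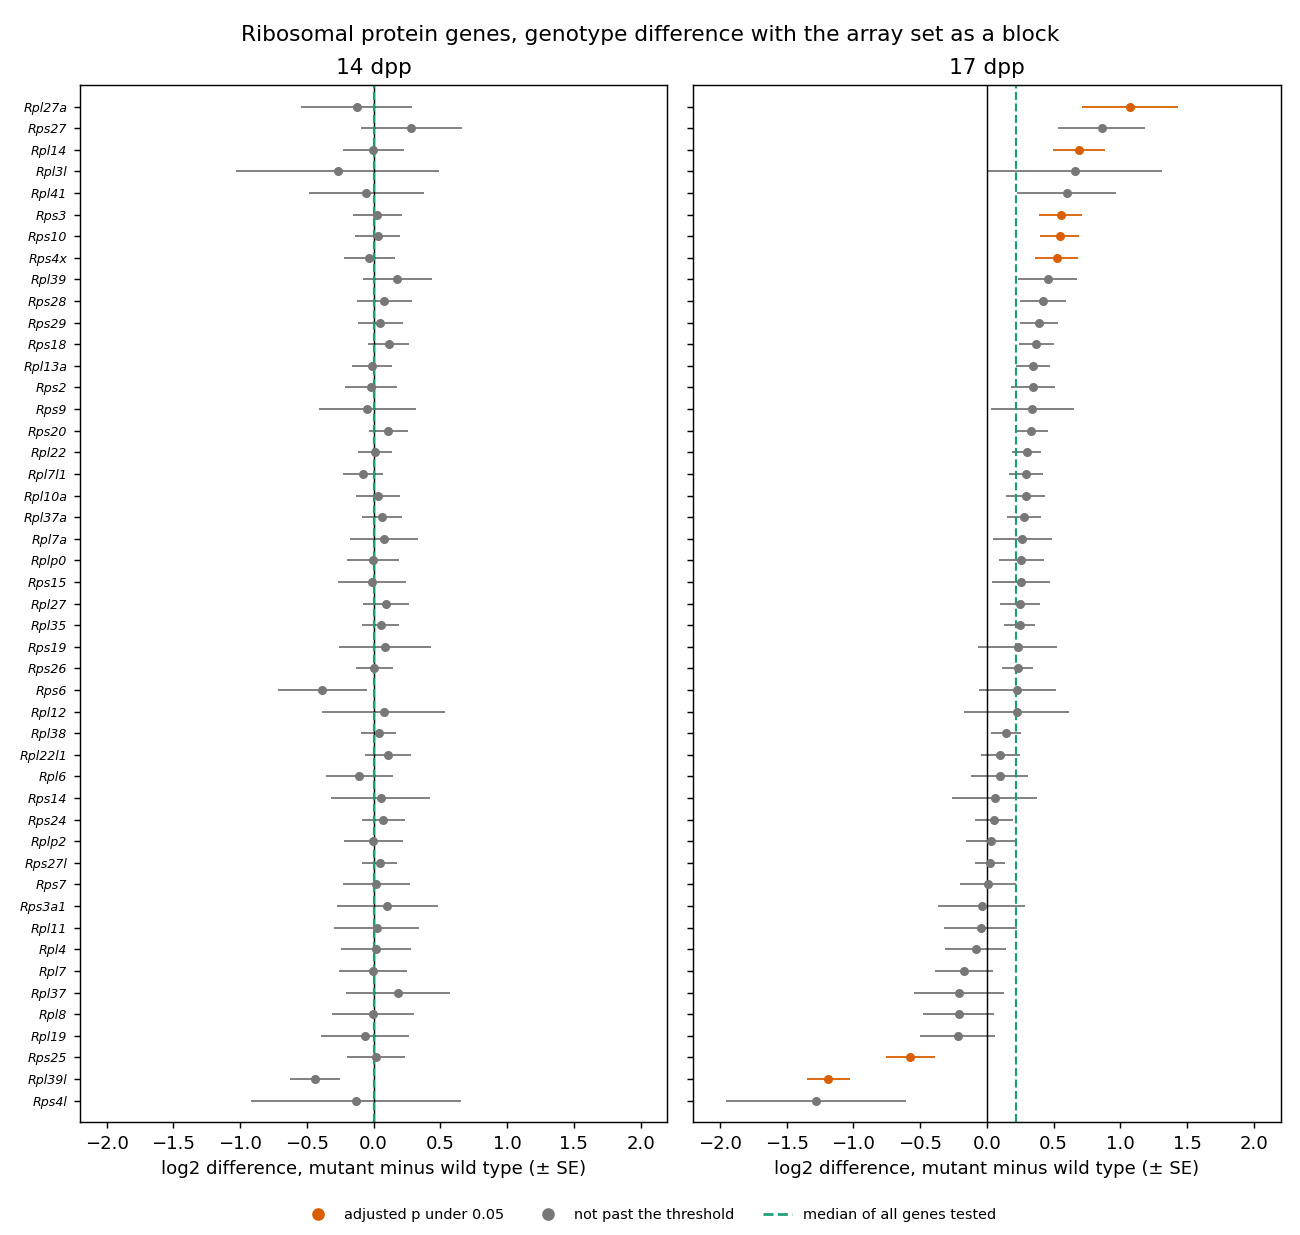
Log2 difference, mutant minus wild type, of the 47 ribosomal protein genes tested at 14 dpp (left) and 17 dpp (right), ordered by the 17 dpp value; bars are the SE from limma, orange marks an adjusted p under 0.05, and the dashed line is the median of all genes tested. At 14 dpp no gene is orange, while at 17 dpp 7 are, of which Rpl39l and Rps25 lie below 0 and the other 5 above the dashed line.

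Rpl39l, the spermatogenic paralogue of the exit tunnel protein Rpl39, passed the test at 17 dpp and had its mutant arrays below its wild-type arrays at both ages. At 14 dpp its signal was 5125, 4886, 4009, 4312 and 4070 in mutant testes, against 6006, 6675 and 6133 in wild-type testes. At 17 dpp it was 5695, 5612, 10136, 9151 and 5668 in mutant testes, against 10464, 15626, 19079, 19792 and 26558 in wild-type testes. The highest mutant array thus lay below the lowest wild-type array at each age, and no other of the 48 genes showed this at both. Of all genes tested, 4.49% had every mutant array below every wild-type array at 14 dpp and 4.98% at 17 dpp.

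The difference of Rpl39l at 17 dpp was -1.19 ± 0.16, a 2.28-fold lower signal (limma, adjusted p = 5.38e-05). Within set 3 it was -1.30 (adjusted p = 0.000471) and within set 1 it was -0.89 (adjusted p = 0.211), and leaving out any 1 array kept it past the threshold. At 14 dpp the difference was -0.44 ± 0.19, which did not pass the threshold (adjusted p of about 1.0), although the fit to the 14 dpp arrays alone called it (adjusted p = 0.00834; range over the alternatives 0.00834 to 1). The difference at 17 dpp minus that at 14 dpp was -0.75 ± 0.25 and did not pass either (limma, adjusted p = 0.2).

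Pachytene spermatocyte markers moved the same way. All 8 (Piwil1, Adam2, Ldhc, Pgk2, Clgn, Hspa2, Tesmin and Cyct) were called lower at 17 dpp, where 11.4% of all genes tested were. At 14 dpp all 8 had a negative difference and 7 were called lower, where 0.581% of all genes tested were (limma). Their summed signal per array was 1615 to 3020 in mutant and 11529 to 18228 in wild-type testes at 14 dpp, and 2622 to 4123 in mutant and 59498 to 125423 in wild-type testes at 17 dpp. Their part in the difference of Rpl39l was not tested, and in whole-testis RNA fewer cells of a type and less RNA per cell cannot be told apart.

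The 250 bases before the RefSeq start of Rpl39l and of Rpl39 are shown because the 2 genes differed in how their signal compared between the genotypes. Capitals mark every match to AACNG, the core of the MYB recognition element, on either strand (read as CNGTT on the other strand), with overlapping matches merged. The build is GRCm38.p6, and Rpl39l lies on the plus strand and Rpl39 on the minus strand.
Rpl39l, chr16:10169978-10170227: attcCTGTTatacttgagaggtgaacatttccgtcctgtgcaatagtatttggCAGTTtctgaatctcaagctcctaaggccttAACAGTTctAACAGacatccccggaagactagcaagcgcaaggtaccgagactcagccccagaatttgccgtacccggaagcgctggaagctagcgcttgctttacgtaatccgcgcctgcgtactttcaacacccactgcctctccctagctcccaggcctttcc
Rpl39, chrX:37085223-37085472: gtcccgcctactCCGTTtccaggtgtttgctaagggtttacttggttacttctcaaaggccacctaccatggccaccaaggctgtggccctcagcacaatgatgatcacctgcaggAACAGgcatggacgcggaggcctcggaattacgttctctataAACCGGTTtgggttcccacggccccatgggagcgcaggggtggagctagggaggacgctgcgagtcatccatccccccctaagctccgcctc

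There were 5 matches before Rpl39l, whose first bases lie 246, 197, 166, 164 and 157 bases before the start, and 4 before Rpl39, at 238, 134, 92 and 89. In each gene 1 pair of matches overlaps. Such a short motif is common: 36 of the 42 members with a RefSeq promoter (85.7%) held at least 1 match, as did 74.1% of the promoters of 27025 genes. At least 5 matches were found in 3 of the 42 (7.14%), Rpl39l, Rps18 and Rps4x, and in 2.41% of all promoters. A match is a description of these letters and not a site.

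Rpl39, the X-linked parent, did not follow its paralogue. At 14 dpp its signal was 494, 403, 529, 539 and 547 in mutant testes, against 424, 397 and 452 in wild-type testes. At 17 dpp it was 278, 228, 680, 653 and 373 in mutant testes, against 126, 529, 415, 627 and 334 in wild-type testes, and the groups overlapped at both ages. The difference was 0.18 ± 0.26 at 14 dpp and 0.46 ± 0.22 at 17 dpp, and neither passed the threshold (limma, adjusted p of about 1.0 and 0.161). At 17 dpp the 511 X-linked genes tested had a median of 0.67, above the value of Rpl39. The 17 dpp value of Rpl39 rested on which arrays were used. It was 0.99 without the arrays of set 3 (adjusted p = 0.00609), 0.70 with array weights (adjusted p = 0.0184) and 0.68 without mutant array 5 of 17 dpp (adjusted p = 0.0231), each a call higher in mutants, and 0.25 within set 3 (adjusted p = 0.572).

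For 5 paralogues the parent had a probe set of its own, and the log2 difference between paralogue and parent was compared between genotypes on each array. Only differences between arrays were tested. The size of a paralogue minus parent value does not compare the RNA amounts of the genes, since their probe sets differ. Genotypes were exchanged within age and array set in an exact two-sided permutation test, with p adjusted over 15 comparisons, 5 pairs at 14 dpp, at 17 dpp and at both ages together. Rpl39l minus Rpl39 was 2.90 to 3.60 in mutant and 3.76 to 4.07 in wild-type testes at 14 dpp, and 3.81 to 4.62 in mutant and 4.88 to 6.37 in wild-type testes at 17 dpp, again with no overlap. The mutant lay lower by a log2 difference of -0.62 at 14 dpp (exact p = 0.0417, the smallest that 24 arrangements allow; adjusted p = 0.119). At 17 dpp the difference was -1.64 (exact p = 0.00952, the smallest that 105 arrangements allow; adjusted p = 0.0476), and over both ages it was -1.13 (exact permutation p = 0.000397, adjusted p = 0.00595). Without the arrays of set 3 the 17 dpp value was -1.88, and with the few arrangements left its adjusted p was 0.455. Leaving out any 1 of the 10 arrays of 17 dpp gave -1.78 to -1.45 with adjusted p of 0.0625 to 0.143, since fewer arrangements remained, and the value over both ages kept its call in all 18 such cases.

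Rps4l, which the reference table lists as a transcribed pseudogene, was compared with the X-linked Rps4x. Its signal was 4341 to 6376 in mutant and 4831 to 6758 in wild-type testes at 14 dpp. At 17 dpp it was 6123, 4811, 194, 7.90 and 280 in mutant testes, against 5432, 391, 366, 165 and 187 in wild-type testes. The high values at 17 dpp are those of set 1 and the low ones those of set 3, in both genotypes. The value of 7.90, on mutant array 4, was below that array's 40th percentile of signal (90.0), the level of the filter, so that a log2 difference that includes it has no firm size. The difference of Rps4l itself was -1.28 ± 0.67 at 17 dpp (limma, adjusted p = 0.201), within set 1 it was -0.0012, and without mutant array 4 it was -0.10 (adjusted p = 0.812).

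Rps4l minus Rps4x was -10.51 on mutant array 4 of 17 dpp, against -6.36 and -5.79 on the other 2 mutant arrays of set 3 and -5.83 to -4.93 on the wild-type arrays of that set. It differed between genotypes by -0.10 at 14 dpp, by -1.80 at 17 dpp (exact permutation, adjusted p = 0.0714) and by -0.95 over both ages (exact permutation, adjusted p = 0.0179). Most of that size came from the 1 dim value: without mutant array 4 of 17 dpp the difference was -0.73 at 17 dpp (exact permutation, adjusted p = 0.133) and -0.41 over both ages (exact permutation, adjusted p = 0.0417). The call over both ages was lost without the arrays of set 3 (-0.34, adjusted p = 0.208), without the array sets as strata (-0.35, adjusted p = 0.823) and without wild-type array 1 of 17 dpp (-1.19, adjusted p = 0.0625; exact permutation in each). With 16 added to the signal the 17 dpp comparison was called (-1.44, exact permutation, adjusted p = 0.0357).

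The other 3 pairs gave no comparison past the threshold. Rps27l, a paralogue known as a p53 target, had a signal of 11067 to 17255 in mutant and 10229 to 17990 in wild-type testes at 17 dpp, a difference of 0.03 ± 0.11. Its parent Rps27 had 525, 511, 112, 215 and 106 in mutant testes, against 168, 106, 118, 67.2 and 86.6 in wild-type testes, a difference of 0.86 ± 0.32 (limma, adjusted p = 0.0721). It was called higher in mutants without the arrays of set 3 (1.62, adjusted p = 0.0324), with array weights (1.15, adjusted p = 0.0456), without mutant array 5 of 17 dpp (1.04, adjusted p = 0.0394) and without mutant array 4 of 14 dpp (0.86, adjusted p = 0.0397), while within set 3 it was 0.56 (adjusted p = 0.346). Rps27l minus Rps27 differed by -0.83 at 17 dpp (exact permutation, adjusted p = 0.119). Rpl22l1, which can stand in for the RNA-binding protein Rpl22 in mice, differed by 0.10 ± 0.15 at 17 dpp, and Rpl22 by 0.30 ± 0.11 (limma, adjusted p = 0.0641). Rpl22 was called with the replicate block (0.35, adjusted p = 0.0226), with the filter at the 60th percentile (0.30, adjusted p = 0.0415) and without wild-type array 2 of 17 dpp (0.34, adjusted p = 0.0382). The other probe sets of Rpl22 went the other way at 17 dpp, with -0.06 and -0.63 (limma, adjusted p = 0.922 and 0.328). Rpl7l1 differed by 0.29 ± 0.13 and Rpl7 by -0.17 ± 0.22, and the 2 genes overlapped between genotypes. Rpl3l, whose parent Rpl3 has only shared probe sets, had a signal of 11.5 to 62.9 in mutant and 6.48 to 38.7 in wild-type testes at 17 dpp, and lay below the array's 40th percentile on 15 of the 18 arrays.

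**Figure D2:**
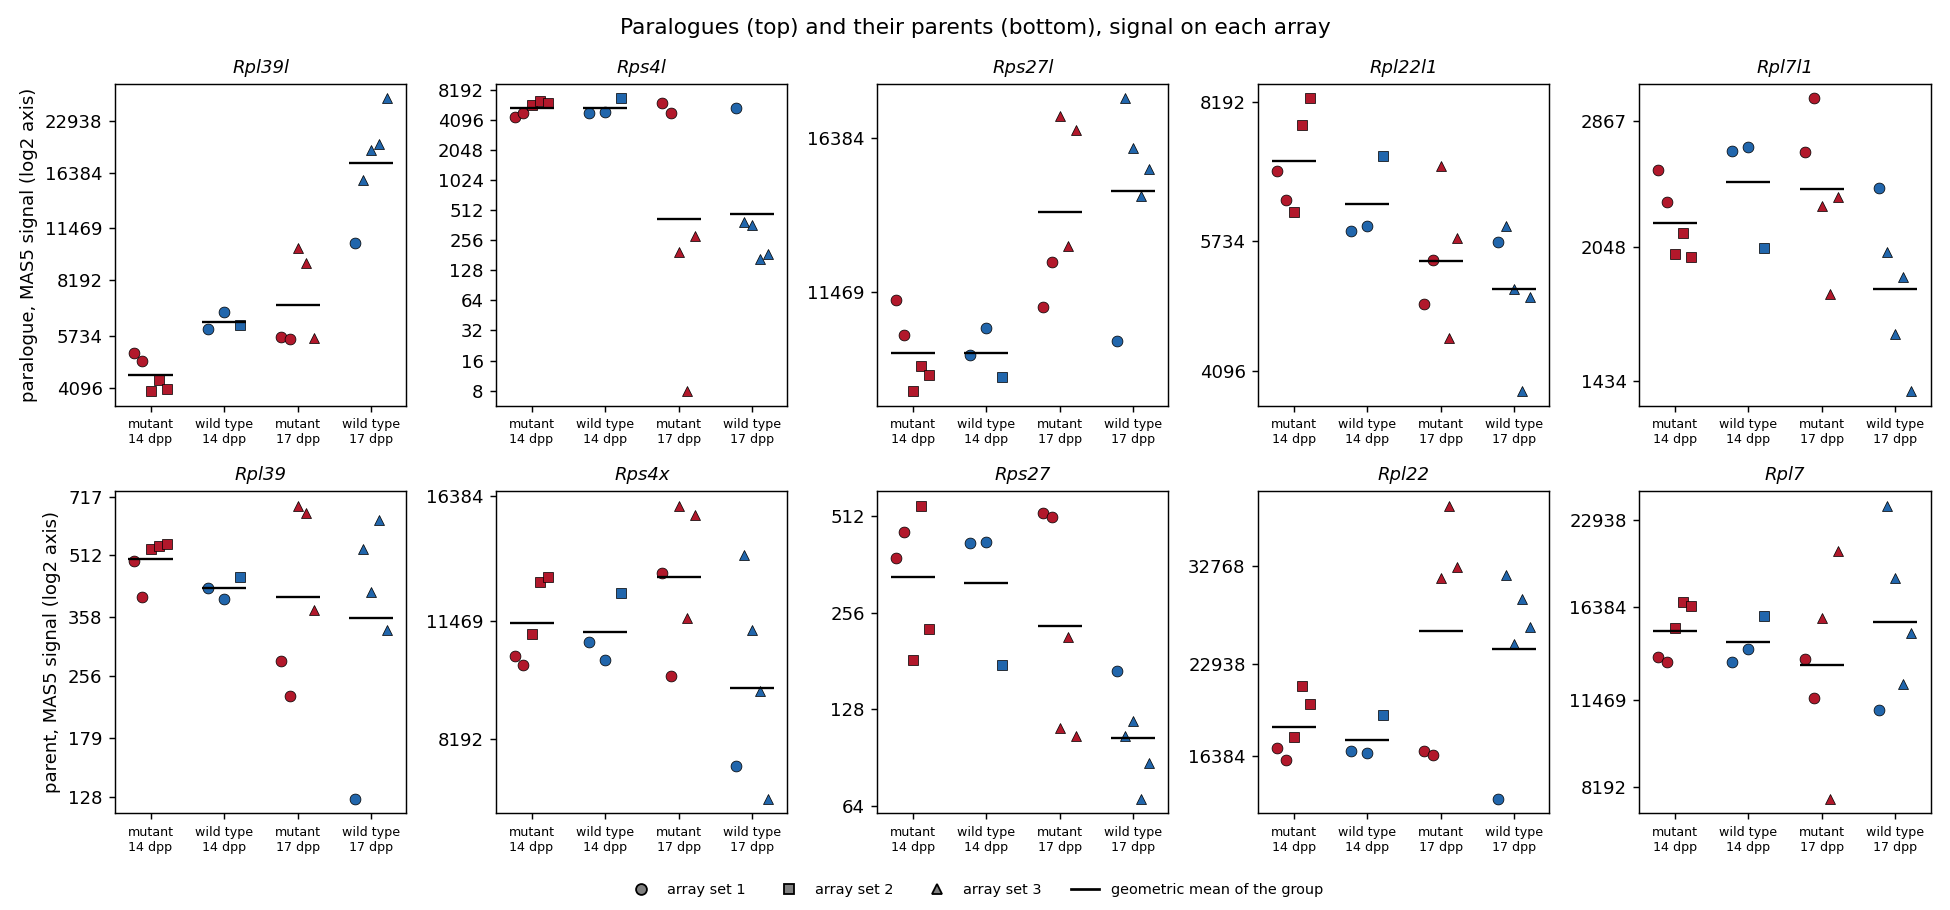
MAS5 signal on each array (log2 axis, which differs between panels) of the 5 paralogues (top row) and their parents (bottom row), mutant left of wild type at each age; marker shape gives the array set and the line the geometric mean of the group. Rpl39l alone separates the genotypes at both ages, and Rps4l falls to 391 or less on all arrays of set 3.

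Among small subunit genes at 17 dpp, 3 of the 19 outside the paralogues (15.8%) were called higher, Rps10, Rps3 and Rps4x. Called lower was 1 (5.26%), Rps25. The shares over all genes tested were 14.4% higher and 11.4% lower, so the higher calls were near the background and the lower ones below it. Rps10, a protein of the subunit's head, had a signal of 16108, 19150, 3301, 3330 and 2434 in mutant testes, against 14761, 2537, 1666, 1977 and 1533 in wild-type testes. Set 3 arrays were far dimmer than set 1 arrays in both genotypes, and within set 1 the mutants lay 0.25 above wild type. The blocked difference was 0.55 ± 0.15 (limma, adjusted p = 0.014), and the other 5 probe sets of Rps10 gave 0.38 to 0.85, 2 of them past the threshold. Without the arrays of set 3 it was 0.25 (adjusted p = 0.224), and without mutant array 3 it was 0.48 (adjusted p = 0.0514).

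Rps3, which lies where the mRNA enters the subunit, had a signal of 17320, 11956, 13163, 12140 and 8324 in mutant testes, against 10228, 9134, 6692, 8578 and 5659 in wild-type testes. Only the lowest mutant array lay within the wild-type range. The difference was 0.55 ± 0.16 (limma, adjusted p = 0.0209). Its 2 other probe sets gave 0.22 and -0.26, and the mean over the 3 gave 0.17 (adjusted p = 0.673). The call was also lost without mutant array 3, wild-type array 1 or wild-type array 5 of 17 dpp (adjusted p = 0.0752, 0.058 and 0.0518).

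Rps4x had a signal of 13142, 9808, 15913, 11550 and 15523 in mutant testes at 17 dpp, against 7580, 13825, 11175, 9398 and 6907 in wild-type testes, and the groups overlapped. The difference was 0.53 ± 0.16 (limma, adjusted p = 0.0295), 0.58 within set 1 and 0.50 within set 3. The call was lost without mutant array 1, 3 or 5 or wild-type array 1 or 5 of 17 dpp, with adjusted p of 0.0568 to 0.1. The 511 X-linked genes tested had a median difference of 0.67, and 257 of them (50.3%) were higher at 17 dpp, so Rps4x lay below their median.

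Rps25, known as a protein that viral internal ribosome entry sites require, had a signal of 2662, 1654, 3165, 4530 and 2440 in mutant testes at 17 dpp, against 2804, 4271, 4431, 6022 and 5807 in wild-type testes. The groups overlapped, and the difference was -0.57 ± 0.19 (limma, adjusted p = 0.0385). It was -0.42 within set 1 and -0.63 within set 3. The fit without the array set gave -0.72 (adjusted p = 0.123), and leaving out 1 array lost the call in 8 of 18 cases (mutant arrays 4 and 5 of 14 dpp, mutant arrays 2, 3 and 5 and wild-type arrays 1, 4 and 5 of 17 dpp), with adjusted p up to 0.113. Rps6, the substrate of S6 kinase, had a difference of -0.38 ± 0.33 at 14 dpp and 0.23 ± 0.29 at 17 dpp, neither past the threshold.

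Among uncalled small subunit genes with a positive difference at 17 dpp were Rps28 (0.42 ± 0.17), Rps29 (0.39 ± 0.14), Rps18 (0.37 ± 0.13) and Rps20 (0.33 ± 0.13), with adjusted p of 0.103, 0.0685, 0.0569 and 0.0716 in limma. Another probe set of Rps20 (0.43, adjusted p = 0.0385) and another of Rps29 (0.33, adjusted p = 0.0432) passed the threshold in limma. The remaining tested probe sets of these 4 genes did not. Without mutant array 5 of 17 dpp all 4 were called higher, Rps28 at 0.64 (adjusted p = 0.00315), Rps29 at 0.55 (0.00441), Rps18 at 0.47 (0.0152) and Rps20 at 0.47 (0.00469). Without wild-type array 4 of 17 dpp they were called too, at 0.51, 0.46, 0.45 and 0.39, with adjusted p of 0.0403, 0.0298, 0.0167 and 0.0328 in the same order. Rps18 was called in 4 further settings and Rps29 in 2, array weights and the mean of probe sets among them. Rps29 had 20246 to 80229 in mutant and 17774 to 60827 in wild-type testes, with the highest values of both genotypes on set 3.

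Among large subunit genes at 17 dpp, 2 of the 20 outside the paralogues and the stalk (10%) were called higher, Rpl14 and Rpl27a. None was called lower. Over all genes tested, 14.4% were called higher and 11.4% lower, so these shares were not above the background. Rpl14 had a signal of 323, 288, 299, 288 and 313 in mutant testes, against 211, 200, 152, 185 and 177 in wild-type testes. Every mutant array was above every wild-type array, which held for 2.05% of all genes tested. The difference was 0.69 ± 0.20 (limma, adjusted p = 0.0192), and the call held in all 18 fits that left out 1 array. Either set by itself lost it, set 1 with 0.53 (adjusted p = 0.709) and set 3 with 0.75 (adjusted p = 0.0581). It was also lost without set 3 (0.53, adjusted p = 0.254), with the 17 dpp arrays alone (0.69, adjusted p = 0.0899), with a common median (0.54, adjusted p = 0.0816), with array weights (0.63, adjusted p = 0.0707) and without the array set in the model (0.72, adjusted p = 0.0658). At 14 dpp the groups overlapped, with 178 to 286 in mutant and 229 to 255 in wild-type testes.

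Rpl27a had a signal of 2237, 1921, 10241, 13035 and 2727 in mutant testes at 17 dpp, against 962, 2315, 2362, 6797 and 3724 in wild-type testes. The groups overlapped widely, and the difference was 1.07 ± 0.36 (limma, adjusted p = 0.0441). Leaving out 1 array lost the call in 16 of 18 cases, all but mutant array 5 and wild-type array 4 of 17 dpp, with adjusted p up to 0.145, and the fit with the replicate block lost it too (0.91, adjusted p = 0.084).

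Rpl41, the smallest protein of the large subunit, had a signal of 27064, 17497, 968, 1116 and 2160 in mutant testes at 17 dpp, against 3734, 2490, 1548, 978 and 1272 in wild-type testes. Its difference of 0.60 ± 0.37 (limma, adjusted p = 0.276) joined unlike values: the arrays of set 1 gave 2.54 (adjusted p = 0.0055) and those of set 3 gave -0.16 (adjusted p = 0.766). It was called higher in mutants without the arrays of set 3 (2.54, adjusted p = 3.04e-06) and with array weights (1.54, adjusted p = 0.00286), and set 1 holds a single wild-type array at that age. Rpl13a was not called at 17 dpp by its brightest probe set (0.35 ± 0.13, adjusted p = 0.0624 in limma). Its other probe sets gave 0.59, 0.52 and 0.41, with adjusted p of 0.00417, 0.00306 and 0.0501 in limma. At the lower end at 17 dpp, without a call, were Rpl19 (-0.22 ± 0.28), Rpl8 (-0.21 ± 0.27) and Rpl37 (-0.21 ± 0.34). At 14 dpp the ends were Rpl37 (0.18 ± 0.39) and Rpl27a (-0.13 ± 0.42), with Rpl6 (-0.11 ± 0.25) just above it. Rplp0, which anchors the stalk, differed by 0.00 ± 0.19 at 14 dpp and 0.26 ± 0.17 at 17 dpp, and Rplp2 by 0.00 ± 0.22 and 0.03 ± 0.19, with no call at either age.

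**Figure D3:**
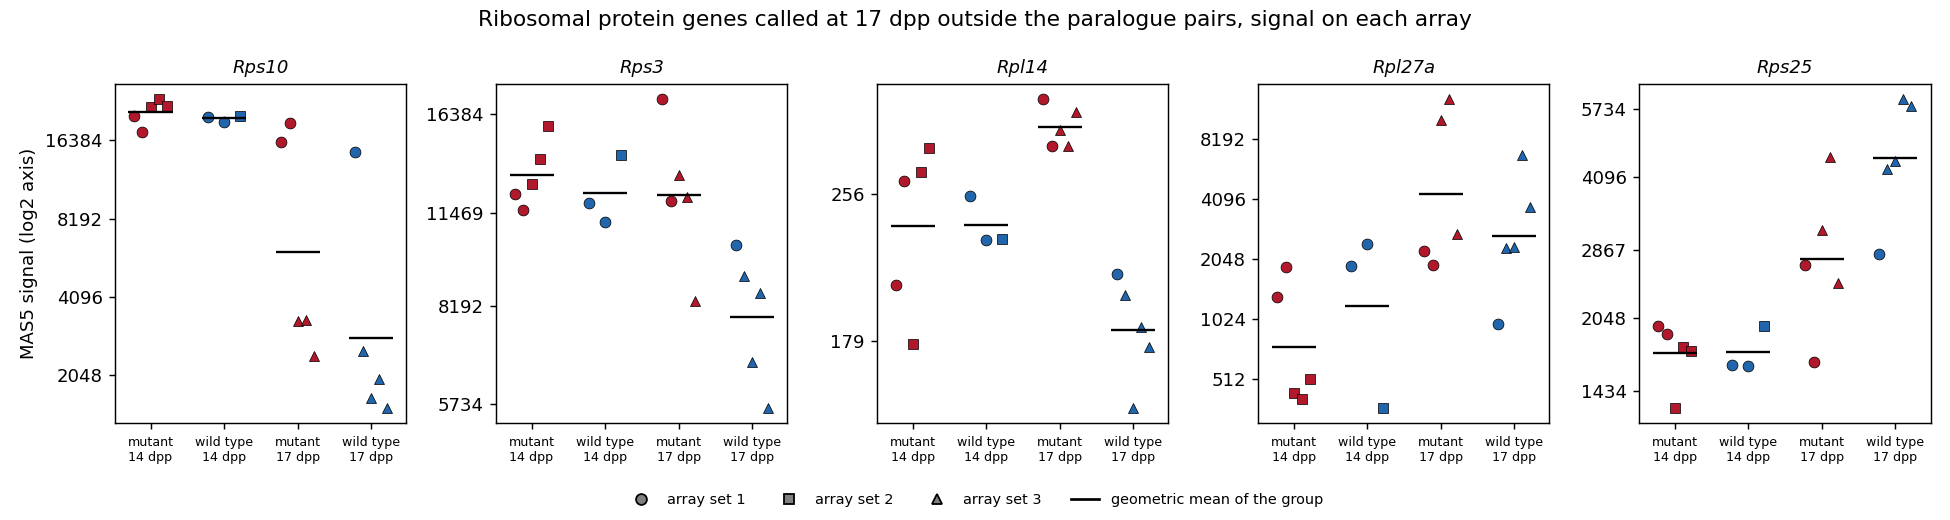
MAS5 signal on each array (log2 axis, which differs between panels) of the ribosomal protein genes called at 17 dpp outside the paralogue pairs, mutant left of wild type at each age; marker shape gives the array set and the line the geometric mean of the group. Rpl14 alone has no overlap between genotypes at 17 dpp, with 288 to 323 in mutant and 152 to 211 in wild-type testes.

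Markers of other cells also moved at 17 dpp, when the family's median was 0.25. Of 7 spermatogonial markers 4 were higher, of 10 Sertoli cell markers 4, and of 5 macrophage markers 3, with medians of 0.82, 0.55 and 0.96, where 14.4% of all genes tested were called higher. Of 5 round spermatid markers 1 was higher, of 5 peritubular myoid cell markers 1, and of 5 Leydig and 5 endothelial cell markers 0, with medians of 0.24, 0.49, 0.72 and 0.29 (limma). The round spermatid sum was only 469 to 1665 in mutant and 353 to 820 in wild-type testes. Since the latest stage that the design text names at 17 dpp is the diplotene spermatocyte, these markers are not read as a measure of spermatids. An unadjusted p under 0.05 was found for 1 of the Leydig and 0 of the endothelial markers, and for 6124 of all 15307 genes tested. Of 7 markers of early meiotic germ cells 2 were higher and 1 was lower, with a median of -0.22. The summed spermatogonial signal was 7964 to 18357 in mutant and 3696 to 11225 in wild-type testes. The Sertoli sum was 42779 to 65324 in mutant and 30593 to 52810 in wild-type testes, and the macrophage sum was 5101 to 7696 in mutant and 1952 to 4107 in wild-type testes. The part of these cells in the calls of ribosomal protein genes was not tested.

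The bases around the annotated start are shown for the 13 genes of the 5 pairs and of the calls at 17 dpp that had a RefSeq promoter. A pyrimidine run at the start of the transcript is the hallmark of the family. Each window has 15 bases on either side of the first RefSeq start listed (GRCm38.p6), and capitals mark a run of at least 7 pyrimidines (C or T).
Rpl22l1, chr3:28805493-28805522, plus strand: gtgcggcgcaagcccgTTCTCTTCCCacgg
Rpl22, chr4:152325711-152325740, plus strand: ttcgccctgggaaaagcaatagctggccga
Rpl39l, chr16:10170213-10170242, plus strand: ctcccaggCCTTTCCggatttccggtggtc
Rpl39, chrX:37085208-37085237, minus strand: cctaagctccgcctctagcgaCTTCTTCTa
Rpl7l1, chr17:46782642-46782671, minus strand: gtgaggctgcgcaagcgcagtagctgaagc
Rps27l, chr9:66946071-66946100, plus strand: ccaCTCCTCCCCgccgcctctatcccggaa
Rps27, chr3:90213634-90213663, minus strand: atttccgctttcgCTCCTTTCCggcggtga
Rps4x, chrX:102189377-102189406, minus strand: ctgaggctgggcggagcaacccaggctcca
Rpl14, chr9:120571502-120571531, plus strand: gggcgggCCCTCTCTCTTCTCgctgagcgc
Rpl27a, chr7:109519180-109519209, plus strand: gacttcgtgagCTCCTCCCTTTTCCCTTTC
Rps10, chr17:27635230-27635259, minus strand: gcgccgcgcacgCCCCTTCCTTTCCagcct
Rps25, chr9:44407699-44407728, plus strand: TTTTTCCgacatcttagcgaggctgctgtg
Rps3, chr7:99483695-99483724, minus strand: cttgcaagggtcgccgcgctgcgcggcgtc

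A run was present in 9 of these 13 windows. In Rpl39l, Rps27l and Rps25 it lies wholly before the start, outside the annotated transcript. Only the first listed start of each gene was used, so a window without a run says nothing about other starts. It was 19 bases long in Rpl27a, where it reached the window's end, 14 in Rpl14, 13 in Rps10, 10 in Rpl22l1, 9 in Rps27l and Rps27, 8 in Rpl39, and 7 in Rpl39l and Rps25, and the windows of Rps4x, Rps3, Rpl22 and Rpl7l1 held none. A run on either side of the start was found in 22 of the 42 members with a RefSeq promoter (52.4%), against 18.5% of the 27025 genes. Of the 5 paralogues with a promoter, 3 held one.

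Between 14 and 17 dpp the fitted values of Rpl39l and its parent moved apart in both genotypes, and the changes passed the threshold only in wild-type testes. Ages met only on the arrays of set 1, with 2 mutant and 1 wild-type array at 17 dpp. In mutants none of the 47 genes passed the threshold for 17 minus 14 dpp, where 0.79% of all genes tested were called. An unadjusted p under 0.05 was found for 3 of the 47 and for 1415 of all 15307 genes tested. In wild type Rpl39l rose by 0.87 ± 0.24 (limma, adjusted p = 0.0335), where 4.82% of all genes were called higher. Rpl39 fell by 1.31 ± 0.32 (limma, adjusted p = 0.0189), where 4.56% were called lower. Rpl39 is X-linked, and of the 511 X-linked genes tested 86 (16.8%) were called lower, with a median of -0.66.

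Both calls were lost without wild-type array 1 of 17 dpp (adjusted p = 0.0632 for Rpl39l and 0.225 for Rpl39), which is the single wild-type array of set 1 at that age. They were lost as well without either wild-type array of set 1 at 14 dpp, with adjusted p of 0.147 and 0.0917 for Rpl39l and 0.0859 and 0.0623 for Rpl39. That of Rpl39l was lost, too, without wild-type array 3 of 14 dpp (adjusted p = 0.0504) and without mutant array 1 or 2 of 17 dpp (adjusted p = 0.0708 and 0.0656). Without the array set in the model the change of Rpl39 was -0.25 (adjusted p = 0.727). In mutants the change of Rpl39l was 0.13 ± 0.22 and that of Rpl39 was -1.03 ± 0.30 (adjusted p = 0.114). For the genotype difference at 17 dpp minus that at 14 dpp none of the 47 was called, where 1.89% of all genes were. Here 6 of the 47 had an unadjusted p under 0.05, as did 2586 of all 15307 genes tested.

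The signal of many ribosomal protein genes differed widely between array sets. The term for set 3 minus set 1 had a median of -0.42 over the 47 genes, against -0.24 over all genes tested, and ran from -5.46 in Rps4l to 1.80 in Rpl27a. Rps9 and Rplp0 lay near the low end: Rplp0 had 19974 and 20143 on the mutant arrays of set 1 at 17 dpp and 993 to 1495 on those of set 3. The term for set 2 minus set 1 had a median of 0.25 over the 47 genes and 0.03 over all genes.

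**Figure D4:**
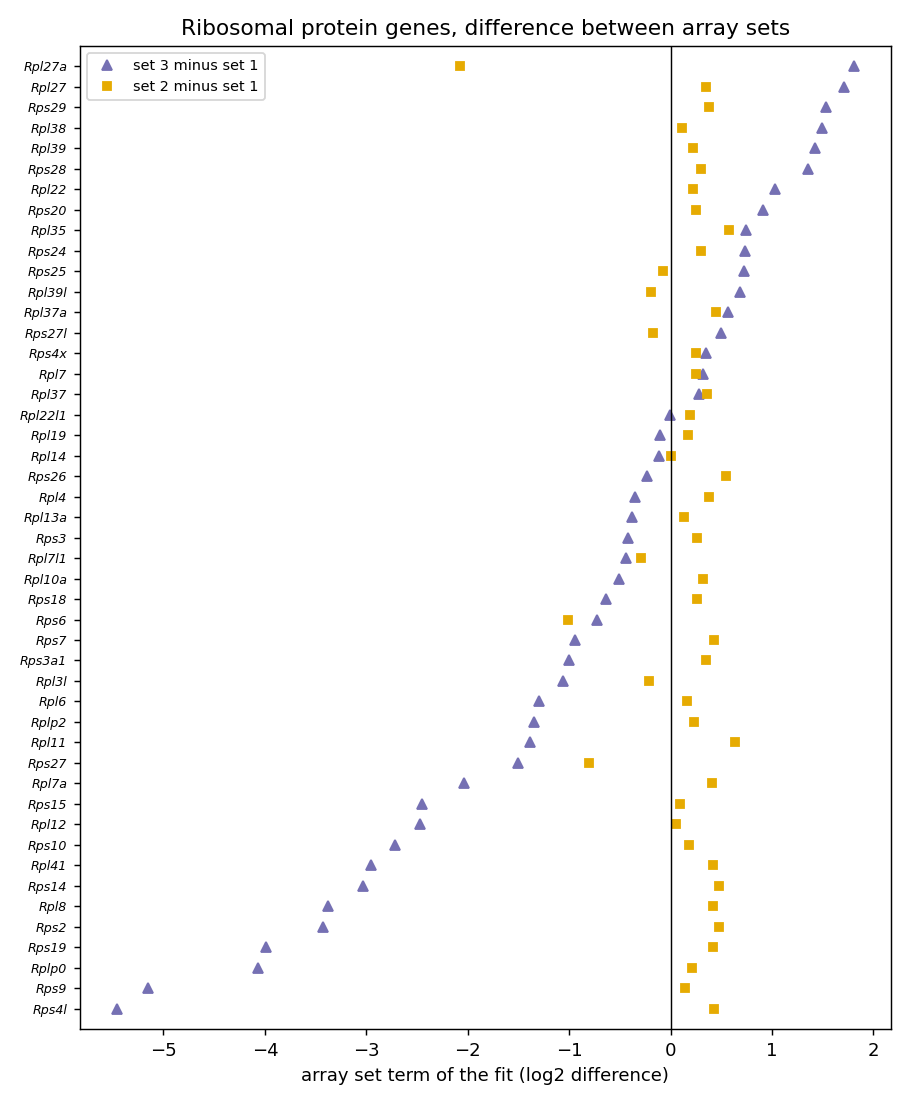
Array set terms of the fit (log2 difference) for the 47 ribosomal protein genes tested, with set 3 minus set 1 as triangles and set 2 minus set 1 as squares, ordered by the triangles. The triangles run from -5.46 to 1.80, while the genotype differences at 17 dpp ran from -1.28 to 1.07.

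Other parts of the translation machinery were set beside the family at 17 dpp, when 14.4% of all genes tested were called higher and 11.4% lower. Of 76 mitochondrial ribosomal protein genes 1 was higher and 13 were lower (1.32% and 17.1%), with a median of -0.11. Mrpl49 (0.61 ± 0.18) was the higher one, and Mrpl24 (-1.59 ± 0.35) and Mrpl38 (-1.37 ± 0.45) were the lowest of the called. Their set 3 term was large, with a median of -1.48. Of 44 ribosome biogenesis genes 3 (6.82%) were higher, among them Dkc1 (0.79 ± 0.20), the pseudouridine synthase of small nucleolar particles, and Utp15 (0.58 ± 0.16), and 4 (9.09%) were lower, among them Wdr12 (-1.88 ± 0.31), a factor of large subunit assembly, and Taf1b (-1.22 ± 0.30), a factor of RNA polymerase I.

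Of 42 translation factor genes 3 (7.14%) were higher, among them the Y-linked Eif2s3y (0.94 ± 0.14) and the X-linked Eif1ax (0.75 ± 0.10), and 5 (11.9%) were lower, among them the scaffold protein Eif4g3 (-1.09 ± 0.27) and Pabpc2, a testis poly(A)-binding protein. Pabpc2 had a signal of 28.8, 29.3, 179, 18.7 and 7.74 in mutant testes, against 3365, 1243, 1049, 704 and 2958 in wild-type testes (limma, adjusted p = 3.08e-05), and 4 of the 5 mutant values lay below the 40th percentile of their array, so no size is given. At 14 dpp no gene of these 3 lists was called (limma), and an unadjusted p under 0.05 was found for 0, 0 and 2 of them in the order given here. Of all 15307 genes tested, 644 had such a p at 14 dpp. Of the ribosomal proteins whose names do not follow the pattern, Rpsa (0.85 ± 0.34) and Fau (0.45 ± 0.18) were tested and neither was called at 17 dpp (limma, adjusted p = 0.0933 and 0.0969).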

How the data were processed

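Total RNA of whole testes was labelled and hybridised to whole-genome mouse arrays of Affymetrix and processed with GCOS, per the series' design text; the submitters' processing notes name MAS5, with no version. The authors deposited 1 MAS5 intensity per probe set and array, on a linear scale; detection calls were not used here. Of 45101 probe sets, 64 controls were left out. The tests covered the 34764 probe sets that exceeded the array-wise 40th percentile of signal on 3 or more arrays. Names came from the platform annotation, updated through Entrez IDs to the RefSeq table (assembly GRCm38.p6); all 48 members matched, and RefSeq promoters were given for 42 of them. The model, fitted to log2 intensity in limma 3.58.1 (R 4.3.3), had a mean for each group plus the array set, defined by cutting the 3' over 5' ratio of β-actin at 1.9 and 10, which left 12 residual degrees of freedom. Moderation was by empirical Bayes with an intensity trend, and adjustment by Benjamini-Hochberg. Permutation tests of the paralogue pairs were exact and two-sided. Scripts were tested on simulated data.

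Named were all paralogues with their parents, X-linked members, stalk genes, members called in a genotype contrast, the 3 highest and 3 lowest of the rest at each age, the 2 highest and 2 lowest called genes of each further list, and Mybl1. Rpl13a was added for its other probe sets. The members, lists and tests were chosen with earlier results of these data known. Alternatives were the array set left out, a replicate block, quantile and common-median normalization, other filters, an offset of 16, array weights, the mean of a gene's probe sets, subsets of arrays, and the two-way model of the design text at 0.025. Replicate numbers were not treated as pairs, since no source links them across genotypes. Arrays of equal number deviated from the means of their groups with correlations of 0.283 to 0.385 at 14 dpp and -0.227 to 0.777 at 17 dpp. The value of 0.777 joins 2 arrays of set 1, and that of -0.227 an array of set 1 with an array of set 3. With the array set in the model they were -0.245 to -0.206 at 14 dpp and -0.546 to 0.0776 at 17 dpp. These correlations cannot decide on pairing, because equal numbers partly share a set.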

Additional observations from a re-analysis of the deposited data

Results flagged for a closer look

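Within groups of 5 arrays, 84 sets of values (a gene in a group) were searched for an array far from the others, by the gap to its nearest neighbour divided by the group's range, both taken on log2 signal. There were 4 above the critical value of 0.71, and chance gives about 1 in 20. Of these, 3 were wild-type array 1 of 17 dpp, the single array of set 1 in its group. On it Rplp0 had 16129, against 761 to 1494 on the other 4 (0.779 of the range), Rps10 had 14761, against 1533 to 2537 (0.778), and Rps4l had 5432, against 165 to 391 (0.753). The remaining one was Rps6, which had 254 on mutant array 4 of 17 dpp, an array of set 3, against 660 to 937 on the other 4 (0.732).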

How the results depend on the processing

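The lower signal of Rpl39l at 17 dpp kept its direction under all 32 alternatives and its call under 31 of them, with differences of -1.34 to -0.89, and only the fit within set 1 lost the call. The other 6 calls at 17 dpp kept their direction under all alternatives, but each was lost under at least 7 of 32. The number of members called at 17 dpp, 7 in the model with the array set, was 1 without the array set, 3 with arrays shifted to a common median, 2 in the two-way model, 1 with the 17 dpp arrays alone, 1 within set 1 and 2 within set 3. It ran from 2 to 13 when 1 array was left out. It was 2 without mutant array 3, 13 without mutant array 5, 3 without wild-type array 1, 11 without wild-type array 4 and 3 without wild-type array 5 of 17 dpp. Calls over all 15307 genes moved as well. They were 311 higher and 892 lower without the array set, and 1091 and 1952 with a common median. The two-way model gave 295 and 784, the 17 dpp arrays alone 630 and 1207. Without wild-type array 1, 4 or 5 they were 1327 and 1450, 2768 and 1951, or 1714 and 1516. Leaving out mutant array 3 or 5 gave 1622 and 1612 or 2396 and 1884, against 2208 and 1752 in the model with the array set. At 14 dpp the count, 0 in that model, was 1 (Rpl39l) with array weights, without set 3, and with the 14 dpp arrays alone, and 0 without any 1 array.

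For the difference between ages of the genotype effect, none was called in that model, 3 with array weights and 2 without set 3. For age in mutants the counts were 0, 3 and 3, and the median of members was -0.31 without the array set and in the two-way model, against 0.05. For age in wild type the count, 2 in that model, was 16 without the array set, 1 after quantile normalization, 10 with array weights, 7 without set 3 and 0 to 4 when 1 array was left out, and the median was -0.55 without the array set and in the two-way model, against -0.18. The replicate block gave 8 members called at 17 dpp, with Rpl22 (0.35, adjusted p = 0.0226 in limma) among them and Rpl27a not (0.91, adjusted p = 0.084), and 0 at 14 dpp. Of the paralogue comparisons, 3 passed as reported, 1 without the array sets as strata, 0 without set 3, and 1 to 3 when 1 array was left out (1 without wild-type array 1 of 17 dpp); fewer arrays leave fewer arrangements. Causes of the other changes were not tested. The probe sets shared between genes were added after seeing the data.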
